A study of Mus musculus with 8 samples.

Results

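The 3 chromosome stretches whose array signal differed between an IgM-transfected mouse B cell line and its relatives were examined probe by probe. The stretches, in mm9 coordinates, were chr10:43594349-69844784 (26.3 Mb), chr2:174252932-178222067 (4.0 Mb) and chr1:74640329-79723121 (5.1 Mb). Every non-control probe placed in them was taken, apart from 10 probes of 7 gene names that the selection leaves out. This gave 664 of 55681 probes, of which 402 lay on chromosome 10, 162 on chromosome 2 and 100 on chromosome 1. The stretches had been picked from array signals that included the IgM line. All values that set the IgM line against another line are therefore given as description, without a test. Comparisons among the other lines were tested. Which comparison with the IgM line picked the stretches is not given in the sources used here. If it used the untransfected arrays, the tests of the IgE clones against those arrays are not independent of the choice, and clone 41 against clone 18 alone uses no such array.

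All samples were A20, a mouse B lymphoma line that carries a class-switched immunoglobulin of its own. The 4 lines were untransfected A20, a line stably transfected with membrane IgM, and the IgE+ lines clone 18 and clone 41, stably transfected with membrane IgE. Each line was measured on 2 one-colour Agilent arrays. Every line was cultured alike, in RPMI1640 medium that held 10% fetal bovine serum and 50 µM beta-mercaptoethanol. Each IgE line is 1 clone, and whether the IgM line is a clone is not given in the sources used here. Whether the 2 samples of a line were grown as separate cultures is not given in the labels, and p-values then reflect only how far these samples spread, which may be technical.

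Stable transfectants are cells in which foreign DNA has joined the genome, grown out under selection. Expression arrays read the RNA of each gene, so a run of neighbouring probes that differ together describes RNA levels along a chromosome, and neither the DNA nor its chromatin was measured here. The chromosome 10 stretch holds genes of RNA processing, mitochondria and protein traffic. The chromosome 2 stretch is a cluster of closely related zinc finger genes, which arose by repeated duplication and encode DNA-binding proteins, together with many long intergenic noncoding RNAs (lincRNAs). The chromosome 1 stretch holds the ligand genes Wnt6, Wnt10a and Ihh among genes of the cytoskeleton and of secretion.

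The 60-base probes printed here read transcripts of the chromosome 2 cluster that were at background in one or both IgE clones. LincRNA intervals are those named by the array design. LincRNA A is chr2:174852887-174853961 on the forward strand, with its probe at chr2:174852932-174852991. LincRNA B is chr2:176908707-176991202 on the reverse strand, with its probe at chr2:176909153-176909212. LincRNA C is chr2:175432867-175469471 on the reverse strand, with its probe at chr2:175432982-175433041. Transcript ENSMUST00000134982 is read by a probe at chr2:175432959-175433018, also on the reverse strand. Capitals mark the 37 bases that the last 2 probes share, so these probes are not independent readings.
LincRNA A: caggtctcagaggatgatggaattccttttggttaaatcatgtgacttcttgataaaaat
LincRNA B: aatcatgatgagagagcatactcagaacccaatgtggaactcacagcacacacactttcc
LincRNA C: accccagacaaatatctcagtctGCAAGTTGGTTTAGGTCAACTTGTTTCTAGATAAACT
ENSMUST00000134982: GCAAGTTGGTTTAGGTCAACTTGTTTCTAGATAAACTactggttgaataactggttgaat

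Sequence copies limit what a probe of this cluster can tell apart. Of the 129 chromosome 2 probes that were tested, 65 (50.4%) shared an unbroken run of at least 25 bases with a probe of another gene name on the array. The corresponding counts were 12 of 181 probes on chromosome 10 (6.6%) and 0 of 63 on chromosome 1. The probes of Gm14406 (chr2:177354233-177354292, reverse strand) and Gm14322 (chr2:177504998-177505057, forward strand) show such a run, of 27 bases in capitals. The probe of Gm14410 (chr2:176978062-176978121, reverse strand) holds 26 of them, also in capitals. Signals of the zinc finger genes may mix several copies, and the gene given for each is the one named by the array design.
Gm14406: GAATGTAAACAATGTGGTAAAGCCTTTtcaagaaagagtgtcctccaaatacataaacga
Gm14322: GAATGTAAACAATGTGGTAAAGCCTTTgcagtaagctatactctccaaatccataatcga
Gm14410: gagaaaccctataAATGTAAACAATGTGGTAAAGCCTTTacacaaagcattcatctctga

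Promoters of the zinc finger genes were also alike. RefSeq promoters (GRCm38.p6) were at hand for 17 tested gene symbols of the chromosome 2 stretch, for 67 of the chromosome 10 stretch and for 32 of the chromosome 1 stretch. In the 250 bases before the start site, the motif CCAAT was found on either strand in 88.2% of the 17 chromosome 2 promoters and in 33.8% of 32851 mouse promoters. It was found in 32.5% of the promoters of the chromosome 10 stretch and in 21.1% of those of the chromosome 1 stretch. A 50-base window around CCAAT in the Gm14322 promoter (chr2:177759181-177759230, forward strand) recurred with at most 2 mismatches in 11 of the 17 promoters, its own included, and 7 of these were identical. The windows of Gm14391 (chr2:175206927-175206976), Gm14325 (chr2:177840383-177840432) and Zfp931 (chr2:178078504-178078553), all on the reverse strand, had 2 mismatches each. These are the matches with the most mismatches, and capitals mark CCAAT. Any part of this window in the signals of the stretch was not tested. A match is a stretch of letters and does not show that a factor binds there.
Gm14322 promoter window: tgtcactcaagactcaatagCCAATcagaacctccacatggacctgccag
Gm14391 promoter window: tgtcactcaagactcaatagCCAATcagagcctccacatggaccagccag
Gm14325 promoter window: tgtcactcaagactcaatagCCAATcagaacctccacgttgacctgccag
Zfp931 promoter window: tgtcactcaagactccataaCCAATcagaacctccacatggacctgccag

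On chromosome 10 the neighbouring genes Ddx21 and Ddx50, which encode related nucleolar RNA helicases, differed in the same direction by close amounts. Their promoters, over 250 bases before the start site (Ddx21 chr10:62602299-62602548 and Ddx50 chr10:62651219-62651468, both reverse strand, GRCm38.p6), differ in motif content. Capitals mark CCAAT and GGGCGG on either strand. Ddx21 held neither motif, and Ddx50, in the first of 2 promoters listed, held 2 copies of CCAAT and 1 of GGGCGG. The GGGCGG motif occurred in 32.7% of all promoters, in 54.2% of promoters of the chromosome 10 stretch, in 23.5% on chromosome 2 and in 60.5% on chromosome 1.
Ddx21 promoter: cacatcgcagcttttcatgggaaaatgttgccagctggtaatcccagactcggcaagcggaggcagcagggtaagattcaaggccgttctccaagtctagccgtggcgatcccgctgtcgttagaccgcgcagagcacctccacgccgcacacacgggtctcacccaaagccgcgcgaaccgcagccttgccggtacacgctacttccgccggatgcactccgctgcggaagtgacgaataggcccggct
Ddx50 promoter: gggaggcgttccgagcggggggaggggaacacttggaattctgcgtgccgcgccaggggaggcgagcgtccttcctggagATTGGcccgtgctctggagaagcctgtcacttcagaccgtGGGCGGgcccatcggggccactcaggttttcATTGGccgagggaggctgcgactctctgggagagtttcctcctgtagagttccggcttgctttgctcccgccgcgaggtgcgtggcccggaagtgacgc

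Values are log2 processed intensities minus the log2 75th percentile of the same array, so 0 is the level of a fairly bright spot and differences between arrays are log2 ratios. A probe was tested where, in 1 line or more, both arrays read it well above background, which held for 373 of the 664 probes (181, 129 and 63 in the order chromosome 10, 2 and 1) and for 29140 of all 55681. The other 291 stretch probes (221, 33 and 37) were too dim to describe. All 8 arrays read 289 of the stretch probes (149, 89 and 51) above background. From 49.7% to 58.9% of an array's spots were above background. The SD of the log2 difference between the untransfected arrays was 0.65, against 0.33 to 0.37 within the other lines. The B cell markers Cd79a, Cd79b, Ms4a1, Pax5, Cd22, Blk and Ebf1 were read above background by every array. The probe of the mu heavy chain constant region read 4.88 and 4.64 on the IgM arrays and 3.65 to 4.29 on the other 6. Summed intensity of 5 erythroid and stromal markers was 732 to 1066 on the IgM arrays, 3123 to 7657 on untransfected arrays, 8720 to 9207 in clone 18 and 2660 to 3678 in clone 41, with Col1a1 above background nowhere. The part of these markers in the results was not tested.

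As a whole, the chromosome 10 stretch read lower in the IgM line and the other 2 stretches read higher. The median difference of IgM from untransfected cells was -0.66 over 181 probes on chromosome 10, a 1.58-fold lower signal, against -0.02 over the rest of that chromosome. On chromosome 2 it was 0.59 over 129 probes, 1.5-fold higher, against 0.01 for the rest of the chromosome. On chromosome 1 it was 0.46 over 63 probes, 1.38-fold higher. The rest of chromosome 1 also read higher in the IgM line, with a median of 0.27 and 75.7% of its probes above 0. Chromosome 1 stood apart in this: the median of every other chromosome lay between -0.04 and 0.07, and that of all 29140 probes was 0.04. The chromosome 10 median was -0.33 with normexp background correction and -0.04 over all 402 probes without the filter. The chromosome 2 median was 0.37 with normexp and 0.35 on the log2 values of the authors' deposited table.

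The shift was present on both IgM arrays. Relative to each probe's mean over the 8 arrays, the median of the chromosome 10 stretch was -0.36 and -0.57 on the IgM arrays and 0.12 to 0.14 on the other 6. The chromosome 2 stretch gave 0.33 and 0.56 on the IgM arrays, -0.07 to 0.02 on untransfected and clone 18 arrays, and -0.31 on both clone 41 arrays. The chromosome 1 stretch gave 0.42 and 0.31 on the IgM arrays and -0.19 to -0.02 on the others. In no stretch did the median of an IgM array fall within those of the other lines. Array against array, the 12 medians of an IgM array minus an array of another line ran from -0.77 to -0.48 on chromosome 10, from 0.29 to 0.91 on chromosome 2 and from 0.34 to 0.7 on chromosome 1. Arrays of 2 lines other than IgM differed by at most 0.1, 0.34 and 0.18.

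Not every gene followed its stretch. On chromosome 10, 138 of 181 probes (76.2%) were below 0 in IgM minus untransfected cells, 58 were at or below -1 and 5 were at or above 1. On chromosome 2, 123 of 129 (95.3%) were above 0 and 19 at or above 1, and none was at or below -1. On chromosome 1, 52 of 63 (82.5%) were above 0, 14 at or above 1 and 2 at or below -1. Both IgM arrays lay below all 6 other arrays for 79 of 181 chromosome 10 probes (43.6%), against 7.22% of all probes. Both lay above for 65 of 129 chromosome 2 probes (50.4%) and 29 of 63 chromosome 1 probes (46.0%), against 9.55% of all probes. Across the array, 1.82% of probes passed an adjusted p under 0.05 (limma, Benjamini-Hochberg over all probes) with a change of at least 2-fold between IgM and untransfected cells, 0.686% lower and 1.14% higher. Because the stretches were chosen on such differences, nothing is read from these shares.

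Along chromosome 10 the lower signal lay in the middle of the stretch and not at its ends. In windows of 2 Mb, the median of IgM minus untransfected cells was -0.04 (13 probes) from 43.6 to 45.6 Mb. The next windows held few probes and read 0.06 (2 probes) and 0.91 (1 probe), up to 49.6 Mb. From there to 57.6 Mb the windows gave -1.33 (3 probes), -0.59 (13), -1.63 (2) and -0.94 (9). The median was -1.12 (19 probes) from 57.6 to 59.6 Mb. It was -0.31 (31 probes) from 59.6 to 61.6 Mb, -0.67 (38 probes) from 61.6 to 63.6 Mb and -0.91 (32 probes) from 65.6 to 67.6 Mb. The 1 probe between 63.6 and 65.6 Mb, at -0.05, was saturated. The 2 last windows gave 0.13 (7 probes) and 0.06 (10). On this chromosome 6 probes were saturated on all 8 arrays, Pbld1 among them, and stand in the counts and medians although their differences have no meaning as levels. The genes nearest the edges differed by less than 0.5, apart from 1700027J07Rik. Qrsl1 and Rtn4ip1, just inside the low end, differed by 0.18 and 0.11, and 4933404K13Rik and 1700027J07Rik, just outside, by -0.06 and 0.82. At the high end 2310015B20Rik and Ccdc6 inside differed by -0.45 and -0.10, and Fam13c and Tfam outside by 0.17 and -0.19.

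By kind of transcript, the chromosome 10 shift was largest for probes of RefSeq mRNAs, with a median of -0.94 over 100 probes, against -0.62 for 44 lincRNA probes and -0.11 for 32 probes of other transcripts. Of 33 gene names with several tested probes, 26 had every probe below 0, 2 had every probe above 0 and 5 had probes of both signs. The 12 probes that shared a run of bases with a probe of another name had a median of -0.03, and the other 169 had -0.74.

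The genes listed under RNA helicases and RNA binding read lower in the IgM line at every tested probe. The list is broader than its name, as it holds Eif4ebp2, a translation repressor. All 11 tested probes of 8 genes were below 0 in IgM minus untransfected cells, and 9 were at or below -1. Their median was -1.22, beside -0.66 for the stretch and -0.94 for its 100 RefSeq mRNA probes, of which 48 were at or below -1. Against untransfected cells the list had medians of 0.00 in clone 18 and 0.11 in clone 41, and none of its probes passed the test. Ddx50, the helicase whose promoter is printed above, read 1.19 and 1.26 on the untransfected arrays, -0.17 and -0.30 on the IgM arrays, 1.11 and 1.10 in clone 18, and 1.41 and 1.36 in clone 41. The IgM arrays stood below all others, at -1.46 ± 0.16 (SE, 2 arrays a line) from untransfected cells, a 2.76-fold lower signal. Its neighbour Ddx21 read 4.63 and 4.05 untransfected, 2.92 and 2.73 in IgM, 4.15 and 4.42 in clone 18, and 4.61 and 4.48 in clone 41. That is a difference of -1.52 ± 0.24 (SE), and the untransfected arrays spanned the values of both clones. Eif4ebp2, a repressor of cap-dependent translation, read 4.98 and 4.91 untransfected, 3.78 and 3.69 in IgM, 4.78 and 5.12 in clone 18, and 4.96 and 4.76 in clone 41, 2.32-fold lower in IgM. Ranbp2, a large protein of the nuclear pore, differed by -1.36 and Ascc3, a helicase subunit of a transcription coactivator complex, by -1.12 and -1.33 at its 2 probes. The smallest differences of the list were those of Hnrnph3, an RNA-binding protein, at -0.66 and -0.72.

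Genes of protein turnover and membrane traffic gave a similar picture. Of 16 tested probes of 13 genes, 15 were below 0 in the IgM line and 11 at or below -1, with a median of -1.15. Herc4, a ubiquitin ligase, read 3.96 and 3.81 untransfected, 2.55 and 2.52 in IgM, 3.69 and 3.91 in clone 18, and 3.80 and 3.70 in clone 41. Prep, which encodes prolyl endopeptidase, read 3.21 and 3.29 untransfected, 2.06 and 2.07 in IgM, 3.09 and 3.36 in clone 18, and 3.41 and 3.38 in clone 41. In both genes the IgM arrays lay below the other 6, 2.54-fold and 2.27-fold below untransfected cells. The other lines overlapped in Herc4, while in Prep both clone 41 arrays were the highest. Prep lies in the first window, whose median over 13 probes was -0.04. Gcc2, a Golgi coiled-coil protein, differed by -1.26, Sar1a, the GTPase that starts COPII vesicles, by -1.11 and -0.94, and Atg5, an autophagy factor near the low end, by 0.04.

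In clone 18, 1 probe of this list passed the test. Reep3, a protein that shapes the endoplasmic reticulum, read 4.22 and 3.91 untransfected, 2.75 and 2.75 in IgM, 2.48 and 2.71 in clone 18, and 3.30 and 3.17 in clone 41. All 3 transfected lines lay below untransfected cells, by -1.47 ± 0.19 (SE; adjusted p = 0.00545, limma) in clone 18 and by -0.83 (adjusted p = 0.0505, limma) in clone 41. A second Reep3 probe gave -0.85 and -0.90 in the clones and passed in neither.

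In the mitochondrial list, 10 of 12 probes of 9 genes were below 0 in the IgM line, 8 of them at or below -1, with a median of -1.14. None passed the test in either clone. Supv3l1, the mitochondrial RNA helicase, read 2.44 and 1.75 untransfected, 0.87 and 0.61 in IgM, 1.99 and 2.04 in clone 18, and 2.19 and 1.84 in clone 41. Cbara1, a regulator of mitochondrial calcium uptake, differed by -1.14 and -0.99. The 2 probes above 0 were those of Qrsl1 and Rtn4ip1, at the low end of the stretch. Among the genes of this list, Ppa1, the cytosolic inorganic pyrophosphatase, and Tysnd1, a peroxisomal protease, act mainly elsewhere. Ppa1 read 5.23 and 4.22 untransfected, 3.19 and 3.15 in IgM, 4.75 and 4.95 in clone 18, and 4.93 and 4.55 in clone 41. Tysnd1 differed by -1.04.

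The lysosome and sphingolipid list had 3 tested probes, all below 0: Psap, the precursor of the saposins, at -1.19, Sgpl1, the sphingosine-1-phosphate lyase, at -0.94, and Slc29a3, a lysosomal nucleoside transporter, at -1.48. None passed in a clone at 2-fold, and Slc29a3 differed by -0.91 (adjusted p = 0.021, limma) in clone 18. Of 6 tested chromatin and transcription probes, 5 were below 0, with a median of -1.02, and none passed in a clone. Sirt1, an NAD-dependent deacetylase, read 2.73 and 3.23 untransfected, 1.86 and 1.77 in IgM, 2.49 and 2.80 in clone 18, and 2.78 and 3.15 in clone 41. Jmjd1c, of the histone demethylase family, read 3.64 and 3.45 untransfected and 1.94 to 2.85 on all 6 transfected arrays. Its differences of -1.19 (adjusted p = 0.0705, limma) in clone 18 and -1.15 (adjusted p = 0.0928, limma) in clone 41 missed the threshold, beside -1.48 in IgM. Tet1, a DNA demethylase, differed by 0.44 in IgM, H2afy2, a macroH2A histone, by -0.07, and Arid5b by -3.29 ± 1.38 (SE), with untransfected arrays at -2.79 and 1.77.

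Within the immune list, 6 of 8 probes were below 0 in the IgM line, with a median of -0.79. Srgn, the granule proteoglycan serglycin, read 5.55 and 5.70 untransfected, 4.49 and 3.65 in IgM, 4.25 and 4.38 in clone 18, and 4.58 and 5.0 in clone 41. Untransfected arrays were the highest, and Srgn fell in clone 18 by -1.30 ± 0.30 (SE; adjusted p = 0.0459, limma), with -0.83 (adjusted p = 0.173, limma) in clone 41. The coinhibitory receptor VISTA, named 4632428N05Rik on the array, differed by -1.42 and -1.41 at its 2 probes in IgM, and the second passed in clone 41 (-1.45, adjusted p = 0.0499, limma). These calls are close to the threshold: Srgn lost its call under 10 of 17 alternatives and VISTA under 14 of 17. Rtkn2 fell in clone 18 (-2.29, adjusted p = 0.0218, limma), where it was not well above background, at least 1.41-fold lower. The Rtkn2 call was lost with normexp, without the filter on dim probes and in the authors' deposited table. Over the alternatives its difference shrank to as little as -0.12. Chst3, a chondroitin sulfotransferase, was the member that rose in both clones. It read 3.25 and 2.72 untransfected, 3.44 and 3.16 in IgM, 4.04 and 4.13 in clone 18, and 4.19 and 4.36 in clone 41. The rise was 1.10 ± 0.23 (SE; adjusted p = 0.0322, limma) in clone 18 and 1.29 ± 0.23 (SE; adjusted p = 0.0236, limma) in clone 41. Both Chst3 calls were lost without the filter on dim probes, and that of clone 18 also with normexp. Prf1, the perforin gene, differed by -0.31 in IgM.

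Adhesion and cytoskeleton genes were divided, with 5 of 8 probes below 0 in IgM and a median of -0.06. Lims1, an adaptor of integrin-linked kinase, read 2.24 and 2.03 untransfected, 1.01 and 0.41 in IgM, 1.85 and 2.26 in clone 18, and 2.47 and 2.19 in clone 41. The tetraspanin Tspan15 differed by -0.03, Rhobtb1 by 0.29 and Ccdc6 by 0.22 and -0.10. Gja1, the gap junction protein connexin 43, read 0.20 and -0.46 untransfected, -1.14 and -1.62 in IgM, -1.96 and -1.82 in clone 18, and -1.47 and -1.96 in clone 41. All transfected lines lay below untransfected cells, and Gja1 fell in clone 18 (-1.76, adjusted p = 0.0169, limma) and clone 41 (-1.58, adjusted p = 0.0295, limma). Both Gja1 calls were lost without the filter on dim probes, and that of clone 41 also in the authors' deposited table. In the cell cycle list 3 of 5 probes were below 0. Cdk1, the mitotic kinase, gave 0.64 and 0.28, and the 2 probes of the nuclease-helicase Dna2 gave -0.34 and -0.61, which became 0.51 and 0.05 without untransfected replicate 1.

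Apart from Arid5b, Sowahc stood farthest below among the named genes above background on all arrays. It read 1.03 and 0.42 untransfected, -1.84 and -1.87 in IgM, -0.20 and -0.10 in clone 18, and 0.45 and -0.11 in clone 41, 5.97-fold lower in IgM than in untransfected cells. At the other extreme, over all tested probes of the stretch and not only those named genes, X99384 was at 1.43 and 2010107G23Rik at 1.37 in IgM minus untransfected cells. The lincRNA at chr10:69844350-69844784, the last of the stretch, was at 3.12, and it was above background in the IgM line alone. Its probe passed the filter through that line alone, the line in which it was high, so little is read from this value.

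Between the lines other than IgM, chromosome 10 members differed about as often as probes at large. Against untransfected cells 11 of 181 passed in clone 18 (6.08%; 4 higher and 7 lower), beside 7.46% of all probes (3.5% higher and 3.96% lower). In clone 41 it was 7 of 181 (3.87%; 3 higher and 4 lower), beside 5.51% of all probes (2.45% higher and 3.06% lower). Both comparisons use the same untransfected arrays, as does IgM minus untransfected cells. Medians over the stretch were 0.00 in clone 18 and -0.03 in clone 41, with 0.10 and 0.06 over all probes. Between clone 41 and clone 18, 0 of 181 passed in limma, beside 0.261% of all probes (0.12% higher and 0.141% lower). At an unadjusted p under 0.05 there were 14 of 181, beside 1630 of all 29140.

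The largest of these changes was in Adamts14, a secreted metalloprotease that processes procollagen. It read -0.33 and -1.32 untransfected, 0.05 and -1.20 in IgM, -4.92 and -4.69 in clone 18, and -1.94 and -2.28 in clone 41. Clone 18 was not above background and stood at least 15.1-fold below untransfected cells (-3.97 ± 0.47, SE; adjusted p = 0.0042, limma). A lincRNA at chr10:56151791-56184966 was above background in untransfected cells alone and fell in clone 18 (-1.97, adjusted p = 0.0175, limma) and clone 41 (-2.93, adjusted p = 0.00459, limma), at least 1.86-fold and at least 1.75-fold. This probe entered the test through the untransfected line alone, the line in which it was high, so little is read from these falls. Both calls were lost with normexp and in the authors' deposited table, and over the alternatives the differences shrank to as little as -0.22 and -0.41. Rufy2, an endosomal adaptor, rose at 1 of its 4 probes, by 1.29 (adjusted p = 0.0302, limma) and 1.24 (adjusted p = 0.0423, limma). Transcript ENSMUST00000095717 rose by 1.47 (adjusted p = 0.018, limma) and 1.15 (adjusted p = 0.0496, limma). Both Rufy2 calls, and the clone 41 call of this transcript, were lost with normexp and in the authors' deposited table.

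Along chromosome 2, the higher signal of the IgM line filled the stretch. Its 4 windows of 1 Mb had medians of 0.40 (35 probes), 0.67 (33), 0.63 (35) and 0.48 (26). The genes at its edges did not share it. Ctsz, the lysosomal protease cathepsin Z at the low end, read 5.87 and 5.37 untransfected, 5.07 and 5.07 in IgM, 5.46 and 5.60 in clone 18, and 5.37 and 5.26 in clone 41, and so was lowest in the IgM line (-0.55). Th1l, beside it, differed by 0.18, and Gnas and Nespas, just outside, by -0.21 and -0.16. At the high end Cdh26, a cadherin, and 9030418K01Rik differed by -0.15 and 0.27, and Taf4a and 4921531C22Rik, outside, by -0.18 and 0.10. Slmo2, of mitochondrial lipid transfer, differed by -0.31 and -0.39. Probes of Atp5e, Gm14439 and Gm14407 and 1 probe without a gene name were saturated on all 8 arrays, so their differences have no meaning as levels.

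The zinc finger genes were higher in the IgM line by small and similar amounts. Of 27 tested probes of 18 genes, 1 was below 0, the saturated Gm14407, and the median was 0.49 beside 0.59 for the stretch. Gm14325 read 1.17 and 1.39 untransfected, 1.75 and 1.75 in IgM, 0.88 and 1.09 in clone 18, and 0.78 and 0.70 in clone 41. Zfp931 read -0.37 and -0.08 untransfected, 0.20 and 0.50 in IgM, -0.24 and -0.19 in clone 18, and -0.51 and -0.36 in clone 41. Gm14418 read 0.76 and 1.60 untransfected, 1.78 and 2.10 in IgM, 0.86 and 1.06 in clone 18, and 0.65 and 0.84 in clone 41. In all 3 the IgM arrays were the highest, and in Gm14325 the clone arrays were below both untransfected arrays. These 3 genes were among the 6 highest by IgM minus the other lines, so the place of the IgM arrays follows from that choice. Gm14325 and Zfp931 have further tested probes that are not shown. Gm14406, whose probe is printed above, read -2.75 and -2.36 untransfected, -1.90 and -1.53 in IgM, -3.13 and -3.36 in clone 18, and -3.69 and -3.56 in clone 41. It fell in clone 41 (-1.07 ± 0.22, SE; adjusted p = 0.0397, limma) and differed by -0.69 in clone 18. The clone 41 call was lost with normexp and in the authors' deposited table. Probes that shared a run of bases had a median of 0.58 in IgM minus untransfected cells and the others 0.66.

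LincRNA probes, 80 of the 129, had a median of 0.78 in IgM minus untransfected cells, against 0.43 for 34 RefSeq mRNA probes. The highest single values, 2.39 and 1.96, came from lincRNAs at chr2:177314875-177387775 and chr2:175898018-175930211. A probe of the second of these was not above background in untransfected cells, so a difference from those cells is not a measured fold there. Of 31 names with several tested probes, 29 had every probe above 0, 1 had every probe below 0 and 1 was mixed.

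Several transcripts of the cluster were at background in one or both IgE clones. LincRNA A read -2.68 and -3.08 untransfected, -1.55 and -1.36 in IgM, -6.64 and -6.51 in clone 18, and -6.57 and -6.79 in clone 41. It fell in both clones, by -3.69 ± 0.21 (SE; adjusted p = 0.000179, limma; at least 3.64-fold) and -3.80 ± 0.21 (SE; adjusted p = 0.000209, limma; at least 3.43-fold). The 4 IgE arrays were not well above background and the others were. With normexp the clone 18 call of this lincRNA A probe was lost, at a difference of -0.84. In clone 41 its difference shrank to as little as -1.05 over the alternatives. Of its other 2 probes, 1 passed in both clones and 1 in clone 41 alone, with -2.37 (adjusted p = 0.0764, limma) in clone 18. At 1 of its 2 tested probes the zinc finger gene Gm14393 read -3.25 and -3.06 untransfected, -2.34 and -2.53 in IgM, -7.08 and -6.97 in clone 18, and -6.95 and -6.86 in clone 41. That probe fell by at least 3.01-fold in clone 18 (-3.87, adjusted p = 8.01e-05, limma) and at least 2.83-fold in clone 41 (-3.75, adjusted p = 0.000113, limma). Both of these calls were lost with normexp, where the differences were -0.85 and -0.84. The second Gm14393 probe differed by 0.12 and -0.08 and did not pass, so the 2 probes of this gene disagree. LincRNA B read -1.44 and -2.51 untransfected, -1.18 and -1.45 in IgM, -4.44 and -5.25 in clone 18, and -5.11 and -4.82 in clone 41. It fell by -2.87 ± 0.41 (SE; adjusted p = 0.00861, limma) and -2.99 ± 0.41 (SE; adjusted p = 0.00871, limma), in clone 41 at least 6.43-fold. Its other 2 probes also passed in both clones.

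LincRNA C separated the 2 clones. It read -1.33 and -1.70 untransfected, -1.48 and -0.65 in IgM, -2.59 and -2.16 in clone 18, and -6.74 and -6.80 in clone 41. Only the clone 41 arrays were at background. The change in clone 41 from untransfected cells was -5.26 ± 0.31 (SE; adjusted p = 0.000281, limma), at least 8.84-fold, and from clone 18 it was -4.40 ± 0.31 (SE; adjusted p = 0.00366, limma), at least 4.86-fold. The overlapping probe of ENSMUST00000134982 read -2.03 and -2.53 untransfected, -2.13 and -1.59 in IgM, -3.06 and -3.14 in clone 18, and -6.75 and -6.79 in clone 41. It fell in clone 41 by at least 5.21-fold from untransfected cells (-4.49, adjusted p = 0.000234, limma) and at least 2.94-fold from clone 18. These were the 2 of 129 probes, 1.55%, that passed between the clones, beside 0.261% of all probes, and their 37 shared bases make them 1 observation. The 2 other probes of lincRNA C differed by -1.99 (adjusted p = 0.0788, limma) and -1.52 (adjusted p = 0.221, limma) between the clones and did not pass. The call between the clones is lost with normexp background correction and in the authors' deposited log2 table, and neither probe can be tested among probes above background on all arrays. Without clone 18 replicate 2 neither probe passed, and without clone 18 replicate 1 or clone 41 replicate 2 only 1 did.

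In clone 41, 3 probes moved the other way, and 1 did so in clone 18. A lincRNA probe of chr2:175898018-175930211 rose by 2.10 (adjusted p = 0.0332, limma) in clone 18 and by 3.57 (adjusted p = 0.00576, limma), at least 3.61-fold, in clone 41. The other 2 probes of that name did not pass. Its clone 18 call was lost with quantile normalization, with normexp and in the authors' deposited table, and its clone 41 call in that table. In clone 41, 9030418K01Rik rose by 2.71 and a lincRNA at chr2:176610409-176612864 by 1.03. Both of these calls were lost with normexp, without the filter on dim probes and in the authors' table.

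In counts, clone 18 differed from untransfected cells at 10 of 129 chromosome 2 probes (7.75%; 1 higher and 9 lower), beside 7.46% of all probes. Clone 41 differed at 22 (17.1%; 3 higher and 19 lower), beside 5.51% of all probes, and all 9 lower probes of clone 18 were among its 19. The 19 belong to 12 names, 14 of them to 7 lincRNA names, so they are not independent. In clone 41, 15 of the 19 were not above background on either array and entered the test through other lines. Among probes above background on all 8 arrays 5 of 89 passed in clone 41, beside 4.2% of all such probes, and 8 of 129 passed on the log2 values of the authors' deposited table, beside 3.13% of probes there. The median of the stretch in clone 41 was -0.25 from untransfected cells, with 90 of 129 probes (69.8%) below 0, and -0.18 from clone 18, with 99 of 129 (76.7%) below 0. Clone 18 had a median of -0.04 from untransfected cells. Over all probes these medians were 0.06, -0.02 and 0.10. Set against the IgM line, the stretch had medians of -0.48 in clone 18 and -0.79 in clone 41.

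On chromosome 1, 48 of the 63 tested probes lay in the first Mb of the stretch, with a median IgM difference of 0.56. The 3 sparser windows near the high end gave 0.34 (6 probes), 0.50 (5 probes) and -0.58 (4 probes, all of Wdfy1). The edges were not sharp. Rnf25 and Stk36, just inside the low end, differed by 0.26 and -0.10, and Bcs1l and Plcd4, outside, by 0.22 and 0.02. Ap1s3 and Wdfy1 inside the high end differed by 0.53 and -1.16, and Mrpl44 and Fam124b outside by 0.12 and 0.09. A window of 16 probes from 72.6 to 73.6 Mb, before the stretch, had a median of 1.01.

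The ligand genes showed the widest differences. Wnt6 read 1.39 and 0.53 untransfected, 1.82 and 2.12 in IgM, -6.81 and -6.48 in clone 18, and -6.89 and -5.18 in clone 41. The 4 untransfected and IgM arrays were well above background and the 4 IgE arrays were not. Wnt6 fell at least 52.2-fold in clone 18 (-7.61 ± 0.56, SE; adjusted p = 0.000544, limma) and at least 49.2-fold in clone 41 (-7.00 ± 0.56, SE; adjusted p = 0.000905, limma), and differed by 1.00 in IgM. Its neighbour Wnt10a read 5.25 and 4.13 untransfected, 6.02 and 6.31 in IgM, 2.28 and 2.29 in clone 18, and 2.49 and 2.37 in clone 41. The 3 levels did not overlap, IgM being highest at 2.78-fold over untransfected cells. Wnt10a fell by -2.41 ± 0.35 (SE; adjusted p = 0.00925, limma) in clone 18 and -2.27 ± 0.35 (SE; adjusted p = 0.014, limma) in clone 41. Ihh, a hedgehog ligand, read -2.94 and -3.11 in the IgM line, the 1 line in which it was well above background, and -6.51 to -5.01 on the other arrays, at least 3.49-fold higher in IgM than in untransfected cells. Its difference between clone 18 and untransfected cells (1.16, adjusted p = 0.0428, limma) lay below background on both sides, so it has no fold.

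Upstream of Wnt6, over 250 bases before its start (chr1:74771642-74771891, forward strand, GRCm38.p6), GGGCGG was found 6 times on either strand, marked in capitals, and CCAAT was not found.
Wnt6 promoter: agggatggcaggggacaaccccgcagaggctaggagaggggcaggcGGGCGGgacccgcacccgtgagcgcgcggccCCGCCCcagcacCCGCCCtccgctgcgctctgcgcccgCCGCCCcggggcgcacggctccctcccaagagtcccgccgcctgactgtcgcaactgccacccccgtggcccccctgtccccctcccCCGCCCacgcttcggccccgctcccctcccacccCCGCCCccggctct

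Traffic and cytoskeleton genes of chromosome 1 read higher in the IgM line at 14 of 21 probes of 14 genes, with a median of 0.34 beside 0.46 for the stretch. Chpf, a chondroitin polymerizing factor, read 4.09 and 3.91 untransfected, 4.81 and 4.69 in IgM, 3.60 and 3.97 in clone 18, and 3.90 and 3.69 in clone 41. Obsl1, a cytoskeletal adaptor, read -0.20 and -1.89 untransfected, 0.66 and 0.32 in IgM, and -1.99 to -1.20 in the clones, a difference of 1.54 ± 0.56 (SE) in IgM. Des, the muscle intermediate filament desmin, was dim in untransfected and IgM cells and fell in both clones, where it was not above background. It read -3.40 and -4.00 untransfected, -3.00 and -3.64 in IgM, and -6.50 to -6.38 in the clones. The bounds were 2.06-fold (-2.74, adjusted p = 0.00244, limma) in clone 18 and 1.94-fold (-2.71, adjusted p = 0.00308, limma) in clone 41. Both Des calls were lost with normexp and in the authors' deposited table, and over the alternatives the differences shrank to as little as -0.37 and -0.43. Ap1s3, a clathrin adaptor subunit, differed by 0.46 to 0.59 in IgM. Wdfy1, an endosomal protein at the high end, went against the stretch: it read 5.52 and 5.32 untransfected, 4.36 and 4.16 in IgM, 5.71 and 5.33 in clone 18, and 5.61 and 5.44 in clone 41. Its 4 probes differed by -1.16, -0.83, -0.33 and -0.06 in IgM.

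Of the secreted and transcription list, all 6 tested probes of 4 genes were above 0 in the IgM line, with a median of 0.82. They read Slc4a3 (3 probes), Slc23a3, Fev and Pax3. Inha, Scg2 and Resp18, the members with secreted products, were not tested, so the list says nothing of secreted products. Slc4a3, an anion exchanger, gave 1.43, 1.49 and 1.64 at its 3 probes and read 1.86 and 0.92 untransfected, 3.07 and 2.68 in IgM, 1.28 and 0.76 in clone 18, and 0.81 and 0.27 in clone 41 at the second. No probe of this list passed in a clone. The kinase and signalling list had 6 of 8 probes above 0 and a median of 0.71, with Stk11ip, a partner of the kinase Lkb1, at 0.90 and 1.05 and Stk16 at 0.61 and 0.45. None passed in a clone. The mitochondria and lipid list had 3 tested probes and a median of 0.20. Among them Nhej1, a factor of DNA end joining, is not mitochondrial, and it read 1.43 and 1.29 untransfected, 2.42 and 2.36 in IgM, 1.26 and 1.46 in clone 18, and 1.36 and 0.97 in clone 41, 2.04-fold higher in IgM. The IgM arrays again stood above 6 overlapping arrays.

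Over the chromosome 1 stretch, 5 of 63 probes passed in clone 18 (7.94%; 2 higher and 3 lower), beside 7.46% of all probes, and 3 of 63 in clone 41 (4.76%; 0 higher and 3 lower), beside 5.51%. The 3 lower probes, Wnt6, Wnt10a and Des, were the same in both clones, and AI594674 was higher in clone 18 (1.58, adjusted p = 0.025, limma). The other probe counted as higher there was that of Ihh, which was below background in both lines and entered the test through the IgM line alone, so it shows no measured rise. It passed under 5 of the 15 alternatives that tested it. Against untransfected cells the stretch had medians of 0.01 in clone 18 and -0.07 in clone 41, and against the IgM line of -0.44 and -0.48. Between clone 41 and clone 18, 0 of 63 passed in limma, beside 0.261% of all probes, and 5 had an unadjusted p under 0.05, beside 1630 of all 29140.

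With untransfected replicate 1 left out, the probes that passed over the 3 stretches went from 26 to 49 in clone 18 and from 32 to 53 in clone 41. The share of all probes that passed moved likewise, from 7.46% to 12.2% and from 5.51% to 10.2%. Leaving out a clone's own array lowered them to 9 in clone 18 and to 14 and 17 in clone 41, while the share of all probes fell to 2.63% or 3.0% in clone 18 and to 2.34% or 2.76% in clone 41. By stretch, with each array left out in turn, chromosome 10 gave 1 to 23 in clone 18 and 1 to 19 in clone 41, chromosome 2 gave 4 to 15 and 11 to 24, and chromosome 1 gave 2 to 11 and 2 to 10. The highest count came without untransfected replicate 1 in each case.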

How the data were processed

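Sample titles gave each array its line and replicate number. Each array held Cy3-labelled RNA of 1 sample on Agilent design 028005, and the 8 arrays shared 1 slide and 1 scan. Each line filled a column of that slide, so the effects of line and slide column cannot be told apart. Per the file headers, spots were read with Feature Extraction 10.7.3.1 and probes placed on mm9. The processed intensity in the deposited files was background-subtracted by that software, per the file headers, and not normalized between arrays. The authors' deposited value table holds log2 values whose normalization is not stated, and it served as an alternative.

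The log2 processed intensity was reduced by each array's 75th percentile over non-control spots (474 to 664 units), outlier spots were left out and spots of a probe averaged. Probes read well above background by both arrays of some line were tested, each as a feature. For these 29140 probes limma 3.58.1 in R 4.3.3 fitted the mean of each line over all 8 arrays, with 4 residual and 2.74 prior degrees of freedom. P-values were two-sided and adjusted over all probes by Benjamini-Hochberg, and a probe passed with an adjusted p below 0.05 and a 2-fold or larger difference. "At least" marks a bound against the lowest signal well above background on an array. Tested on simulated data for clone 41 minus clone 18 over 29140 probes, the fit recovered 29% of 100 changes of 1.5 log2 units and 79% of 100 changes of 3, with 5 false calls. The number of arrays limits the precision.

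The members and lists were chosen with earlier results of these data known. Genes were named by rule: list members, the 6 highest and 6 lowest by IgM minus the other lines with up to 3 by bound, the 2 nearest each edge on both sides, and up to 4 per direction that passed between other lines. Examples from that rule are given. Marker lists were B cell (8 of 8 well above background on all arrays), T cell (2 of 5, Cd8a on none), myeloid (4 of 5, Lyz2 on none), and erythroid and stromal (3 of 5, Col1a1 on none). Promoter sequences are from RefSeq on GRCm38.p6. Current symbols were found for 266 of 664 probes, and 37 of them differ from the array's names. One further B cell marker is not reported here.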

Additional observations from a re-analysis of the deposited data

Results flagged for a closer look

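A pair of overlapping probes differed between the 2 IgE clones by the test of that difference. LincRNA C (chr2:175432867-175469471, reverse strand) gave -4.40 (log2) at its first probe in clone 41 minus clone 18, and ENSMUST00000134982 gave -3.67. Both probes were at background on the 2 clone 41 arrays, and they share 37 bases, so they count as 1 observation. Over the alternatives the adjusted p (limma) ran from 0.00254 to 0.396 for lincRNA C and from 0.00252 to 0.392 for ENSMUST00000134982.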

How the results depend on the processing

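The median of IgM minus untransfected cells kept its sign in each stretch under every alternative run. On chromosome 10 (-0.66) it was -0.86 with quantile normalization, -0.33 with normexp background correction and -0.04 with no filter on dim probes, and -0.79 to -0.57 with an array left out. On chromosome 2 (0.59) it was 0.37 with normexp and 0.35 in the authors' deposited table, and 0.41 to 0.72 with an array left out. On chromosome 1 (0.46) arrays left out gave 0.41 to 0.64. The probes that passed in clone 18 minus untransfected cells (26) of 373 were 12 with normexp, 10 of 664 with no filter, 12 of 289 among probes above background on all 8 arrays, 14 in the authors' table, and 9 to 49 with an array left out. The share of all probes, 7.46% at first, was 5.1%, 1.97%, 5.99% and 4.38% under the first 4 of these. In clone 41 (32, with 5.51% of all probes) they were 13, 15, 12 and 11 in the same order (3.89%, 1.46%, 4.2% and 3.13% of all probes), 19 with one probe per gene name (5.6%), and 14 to 53 with an array left out. Between the clones (2) they were 0 with normexp and in the authors' table, 0 among probes above background on all arrays, where neither can be tested, and 0 to 3 with an array left out. Of 43 named differences that passed, 6 passed under every alternative that tested them (none is above background on all 8 arrays): Adamts14 in clone 18, Wnt6 in both clones, and lincRNA A, lincRNA C and ENSMUST00000134982 in clone 41 minus untransfected cells. None changed sign. The cause of these losses was not tested.

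Same-numbered arrays shared some deviation in part of the pairs of lines: correlations of same-numbered deviations ran from -0.074 to 0.349 over the 6 pairs. The main fit did not use the replicate numbers. With the replicate number as a block, the probes that passed were 25, 32 and 2 and the medians stayed -0.66, 0.59 and 0.46. Srgn and Ihh in clone 18, and 4632428N05Rik and a lincRNA at chr2:176610409-176612864 in clone 41, no longer passed with it.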
